A study of Mus musculus with 6 samples.

Results

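The cytosolic ribosomal protein genes were examined in bEnd.3 cells, a mouse brain endothelial line transformed with polyoma middle T antigen. Members were the genes of the deposited table whose symbol starts with Rpl or Rps followed by a digit, a or p, without pseudogenes named -ps and without the S6 kinases, and averaging 1 FPKM or more (mapped fragments scaled to transcript length and library size) over the libraries. This gave 85 of 15917 genes, 34 named Rps and 51 named Rpl. The study has 2 groups of 3 libraries of polyadenylated RNA. The shNpc1 libraries (replicates 4, 5 and 6) came from cells with a short hairpin RNA against Npc1, which encodes the membrane protein that exports cholesterol from late endosomes and lysosomes. The shControl libraries (replicates 1, 2 and 3) came from cells with a control hairpin; 1 label calls these WT. By the sample titles, which were followed here, both groups carry a hairpin in the same transformed line. The labels do not say whether replicates were separate cultures or shared 1 hairpin sequence, so p-values measure the spread between these libraries, which may be technical.

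The cytosolic ribosome reads mRNA and joins amino acids. Its small 40S subunit (Rps proteins) holds the mRNA, and its large 60S subunit (Rpl proteins) forms the peptide bond. In mammals the mRNAs of ribosomal proteins begin with a C followed by a stretch of pyrimidines, the terminal oligopyrimidine (TOP) tract. Through this tract the kinase mTORC1, which is activated at the lysosome, and the RNA-binding protein LARP1 adjust how strongly these mRNAs are translated. Translation was not measured here; the values are mRNA levels.

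All 77 genes listed as core 40S, 60S or stalk proteins were members. The other 8 were the paralogues or near copies Rpl22l1, Rpl36al, Rps27l, Rps27rt, Rpl37rt and Rpl32l, the assembly-related relative Rpl7l1, and Rps19bp1, which met the rule by its letters but encodes a partner of Rps19, not a ribosomal protein. At the low end of the rule, Rps27rt was kept with a mean of 4.61 FPKM and Rpl6l was left out with 0.218 FPKM; Rpl3l was also left out. The rule also left out 10 S6 kinase entries and 8 pseudogene entries.

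The annotated starts of several members show the pyrimidine stretch that the family is known for. The sequences below run from 30 bases before to 20 bases after the annotated RefSeq start (GRCm38.p6), 5′ to 3′ on the gene's strand, with the longest unbroken run of C and T within 20 bases of the start in capitals. They are given for the 3 genes that passed the test of Npc1 knockdown (Rps24, Rpl23, Rpl5), for 2 genes at the other end of the fold changes (Rps2, Rps18), for Rps6, the substrate of the S6 kinases, and for the abundant Rpl35. Where a gene has more than 1 annotated start, the one with the longest run is shown.
Rps24 (chr14:24490648-24490697, plus strand): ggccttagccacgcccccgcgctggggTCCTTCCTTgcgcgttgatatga
Rpl23 (chr11:97782420-97782469, minus strand): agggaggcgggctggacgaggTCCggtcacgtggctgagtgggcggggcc
Rpl5 (chr5:107900498-107900547, plus strand): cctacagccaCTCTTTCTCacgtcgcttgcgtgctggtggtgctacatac
Rps2 (chr17:24720033-24720082, plus strand): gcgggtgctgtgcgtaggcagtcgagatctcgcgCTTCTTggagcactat
Rps18 (chr17:33955646-33955695, minus strand): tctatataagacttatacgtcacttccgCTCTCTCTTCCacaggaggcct
Rps6 (chr4:86857348-86857397, minus strand): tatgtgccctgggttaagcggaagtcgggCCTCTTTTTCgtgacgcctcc
Rpl35 (chr2:39005112-39005161, minus strand): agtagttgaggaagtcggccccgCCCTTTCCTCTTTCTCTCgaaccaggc

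Of the 65 members with a promoter entry, 31 (47.7%) had a run of at least 8 C or T bases in that window, against 1592 of 8442 tested genes (18.9%). The run of A and G of the same length, which is the same feature read on the opposite strand, was present in 5 members (7.69%), against 19.0% of the tested genes. A C at the annotated first base followed by at least 4 C or T bases was found at 15 members (23.1%), against 2.9% of the tested genes. The longest run measured 18 bases at Rpl35, 11 at Rps18, 10 at Rps6, 9 at Rps24 and Rpl5, 6 at Rps2 and 3 at Rpl23. Annotated starts can lie away from the true start, so the absence of these letters says nothing about the mRNA.

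Before the members, the libraries were checked. Npc1 (gene 18145) measured 0.45, 1.20 and 0.97 FPKM in shNpc1 replicates 4, 5 and 6, against 6.31, 6.63 and 7.27 FPKM in shControl replicates 1, 2 and 3. The groups did not overlap, and 13.0% of the shControl mean was left (log2 fold change -2.07, SE 0.16, limma adjusted p = 0.000723; exact two-sided permutation p = 0.1, the smallest that 3 against 3 allow). Endothelial markers summed to 1831 to 1915 FPKM in shNpc1 and 1924 to 1954 FPKM in shControl libraries. The list of brain endothelial barrier genes summed to 141.5 to 149.9 FPKM in shNpc1 and 123.5 to 126.1 FPKM in shControl libraries, carried by the transporters Slc2a1, Abcg2 and Slc7a5. Its members Cldn5, a tight junction protein, and Mfsd2a, a lipid transporter, were at or below 0.05 FPKM in every library. Markers of mural, leukocyte, neural and fibroblast cells summed to at most 1.13 FPKM each, and the astrocyte list (24.6 to 30.8 FPKM in shNpc1 and 63.8 to 67.7 FPKM in shControl libraries) was carried by Gja1, which endothelial cells also express. One library stood apart: in shNpc1 replicate 4 the interquartile range of all tested genes spanned 0.623 log2 units around the shControl mean, against 0.270 and 0.304 in replicates 5 and 6. Its deviations followed the GC content of the transcript (Pearson r = 0.63 across 10247 genes, which share the library and are not replicates). In shNpc1 replicates 5 and 6 r was 0.10 and 0.31. A relation to GC was not particular to replicate 4: in shControl replicates 1, 2 and 3 r was -0.41, 0.41 and 0.03. The interquartile ranges of these controls were narrower (0.108, 0.106 and 0.060). Results are therefore given with and without shNpc1 replicate 4.

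Ribosomal protein mRNAs were among the most abundant of these cells. They held 27.2%, 23.9% and 24.9% of the summed FPKM in shNpc1 replicates 4, 5 and 6, against 26.4%, 28.0% and 27.0% in shControl replicates 1, 2 and 3. The share was 25.3% ± 1.72 in shNpc1 and 27.1% ± 0.773 in shControl libraries (SD, n = 3 each). It was below every control in replicates 5 and 6 and between the controls in replicate 4, so the groups overlapped. FPKM is a relative measure: in bulk RNA, fewer cells of a kind and less RNA per cell cannot be told apart.

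The median member had a mean of 1986 FPKM, against 15.5 FPKM for all 10400 tested genes, and 62 of the 100 most abundant genes were members. Rps2, a 40S protein, was the highest, with 9100, 6303 and 6878 FPKM in shNpc1 replicates 4, 5 and 6 and 6768, 7626 and 6915 FPKM in shControl replicates 1, 2 and 3. The replicate 4 value exceeded all controls, the replicate 5 value was below all of them, and the groups overlapped. Next in order of mean level came the 60S genes Rpl35 and Rpl41, the 40S gene Rps26 and the 60S gene Rpl23a. Their means were 5015, 5099, 4787 and 4641 FPKM in shNpc1 and 5554, 5308, 5421 and 5025 FPKM in shControl libraries. Each adjacent pair of these 4 changed its order between libraries, whereas Rpl35 exceeded Rpl23a in all 6.

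The ribosome holds a single copy of most of its proteins, but the listed mRNA levels per length differed widely. Of the 85 members 67 had a mean of at least 1000 FPKM, and only 3, Rps20, Rps15a and Rpl22, lay between 100 and 500 FPKM. Rps20 and Rps15a, both 40S genes, are named here because their values stood out. Their longest protein-coding transcripts in GENCODE M21 measured 3706 and 5179 bases, against a median of 914 for the members. FPKM divides by a length, and the length used for the deposited values is not given. Rps15a measured 119.0, 121.9 and 114.4 FPKM in shNpc1 libraries and 115.7, 120.6 and 124.8 FPKM in shControl libraries. The row Rps15a-ps5, a pseudogene by its symbol, measured 515.5, 422.1 and 406.4 FPKM in shNpc1 and 418.7, 532.2 and 465.5 FPKM in shControl libraries. Ribosomal protein genes have many processed copies in the genome, and how the counting divided reads among copies is not given, so absolute levels of single members are uncertain.

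**Figure D1:**
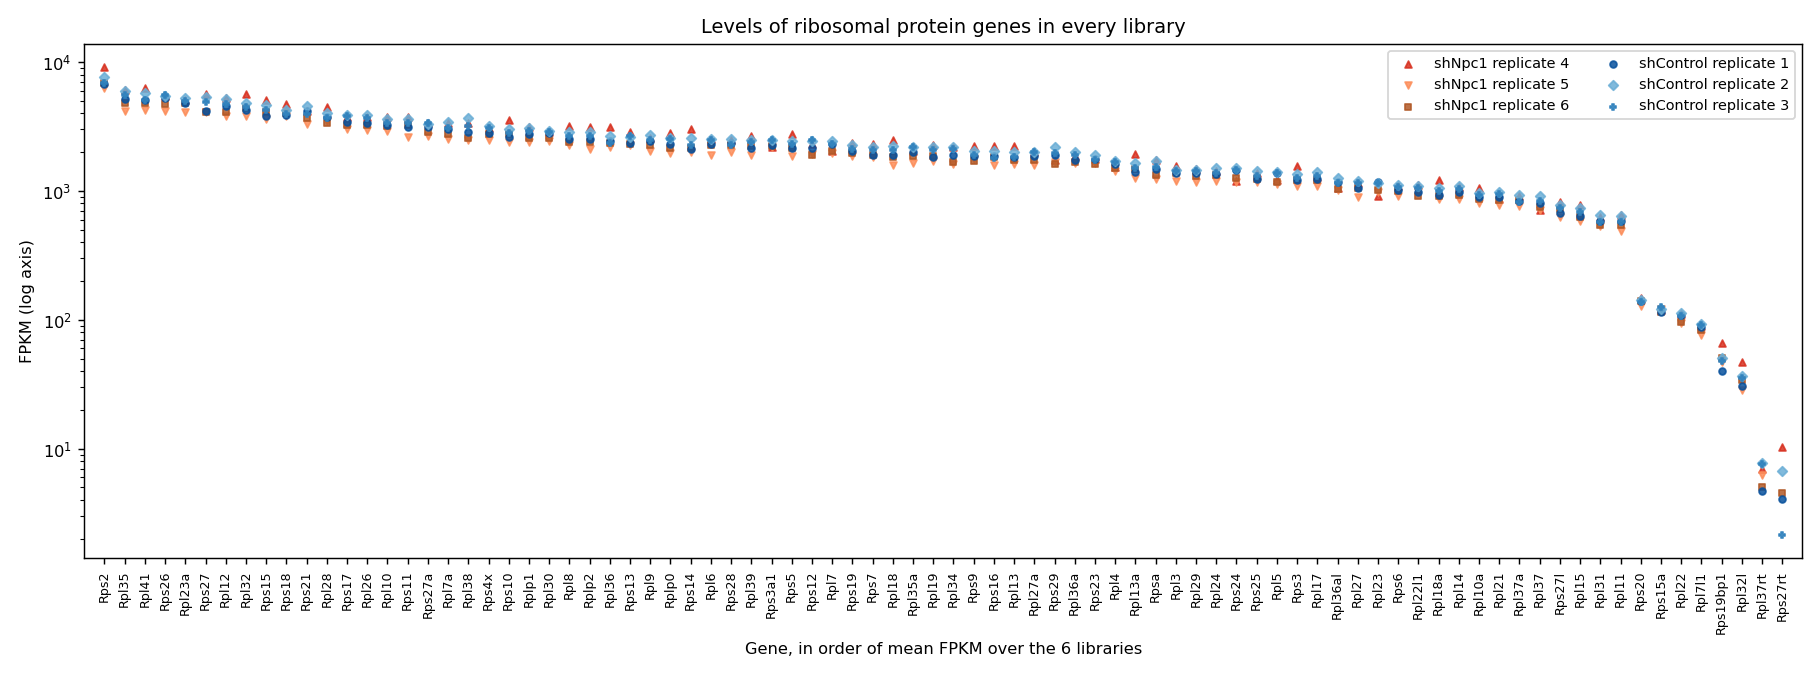
FPKM (log axis) of ribosomal protein genes in each library, ordered by mean level, with shNpc1 libraries as red to brown and shControl libraries as blue symbols. Most genes sit near or above 1000 FPKM, and Rps27rt (listed at 0 in shNpc1 replicate 5 and not drawn there) and Rpl37rt lie lowest.

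The whole set shifted together between libraries, including libraries of the same group. On the log2(FPKM + 1) scale, the median deviation of the members from the shControl mean was 0.09 in shNpc1 replicate 4, -0.24 in replicate 5 and -0.13 in replicate 6. In shControl replicates 1, 2 and 3 it was -0.08, 0.09 and 0.00. All tested genes had medians of 0.03, 0.04 and 0.03 in the shNpc1 and of 0.00, -0.01 and 0.00 in the shControl libraries. The other 956 genes averaging 100 FPKM or more had medians of 0.16, -0.04 and 0.02 in shNpc1 replicates 4, 5 and 6. Replicate 4 was thus highest and replicate 5 lowest among other abundant genes too. For the members, replicate 4 lay on the opposite side of the shControl mean from replicates 5 and 6, level with shControl replicate 2. The gap between the highest and the lowest library median was 0.34 within shNpc1 and 0.16 within shControl, both larger than the median log2 fold change between the groups (-0.10).

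The shift was shared by nearly every member. Replicate 4 was the highest of the 3 shNpc1 libraries for 79 of 85 members, against 43.6% of all tested genes, and replicate 5 was the lowest for 75, against 37.5%. Among the controls, replicate 2 was the highest for 77 members, against 34.2%, and replicate 1 the lowest for 69, against 36.4%. In replicate 5, 80 members were below all 3 controls, in replicate 6 60, and in replicate 4 10. Of all tested genes, 28.7%, 32.5% and 42.0% lay below the controls in replicates 5, 6 and 4. In replicate 4, 45 members were above all controls, against 0 in replicate 5 and 2 in replicate 6; of all tested genes 47.1%, 44.4% and 43.5% lay above the controls in replicates 4, 5 and 6. The members also kept close to each other: their interquartile range spanned 0.22, 0.10 and 0.10 log2 units in replicates 4, 5 and 6, where all tested genes spanned 0.62, 0.27 and 0.30.

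**Figure D2:**
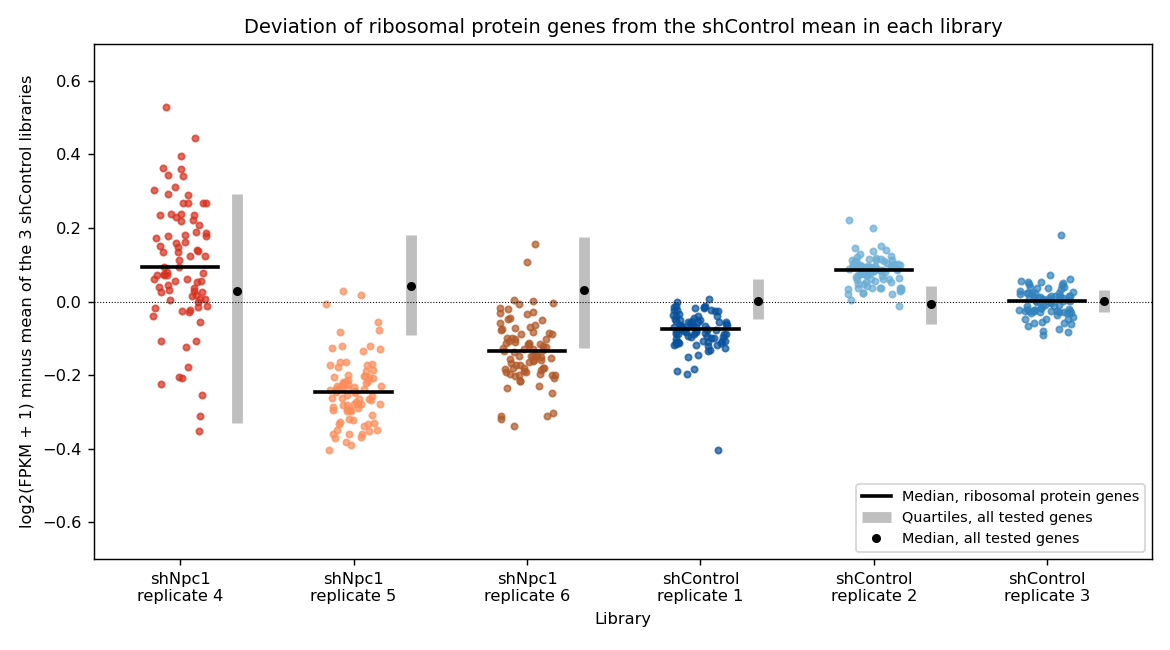
Deviation of log2(FPKM + 1) from the mean of the 3 shControl libraries for each ribosomal protein gene (points; Rps27rt not drawn), with their median (black bar) and the quartiles and median of all tested genes (grey bar, black dot). The members of shNpc1 replicates 5 and 6 lie mostly below 0 (medians -0.24 and -0.13) and those of replicate 4 mostly above (median 0.09).

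Over all 6 libraries, 3 members fell in the knockdown and 0 rose. The 3, or 3.53% of the members, compare with 17.9% of all tested genes called by limma (adjusted p under 0.05) in either direction, 12% called higher and 5.89% called lower, so the members' share of calls was below the background. At an unadjusted p under 0.05 there were 8 members (9.41%), against 34.7% of all tested genes. The log2 fold change was negative for 74 of 85 members, against 45.8% of all tested genes, with a median of -0.10 against 0.03. Among members of at least 10 FPKM it ranged from -0.29 (Rps24) to 0.24 (Rps19bp1). The other 956 genes averaging 100 FPKM or more had a median of 0.05, and 13.9% of them passed.

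Rps24, a 40S protein gene mutated in human Diamond-Blackfan anaemia, had the lowest log2 fold change of these. It measured 1185, 1176 and 1253 FPKM in shNpc1 replicates 4, 5 and 6, against 1457, 1508 and 1445 FPKM in shControl replicates 1, 2 and 3. All 3 shNpc1 values, that of replicate 4 included, were below all controls. The shNpc1 mean of Rps24 was 0.820 of the shControl mean, a log2 fold change of -0.29 with an SE of 0.07 (limma adjusted p = 0.0298).

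Rpl23, a 60S protein that faces the small subunit, measured 907.4, 976.3 and 1018 FPKM in shNpc1 libraries and 1166, 1149 and 1162 FPKM in shControl libraries. The groups did not overlap, and replicate 4 was the lowest of all. The shNpc1 mean of Rpl23 was 0.834 of the shControl mean (log2 fold change -0.26 with an SE of 0.07, limma adjusted p = 0.0449). Rpl5 measured 1205, 1132 and 1180 FPKM in shNpc1 and 1374, 1412 and 1379 FPKM in shControl libraries. These values did not overlap either, and the shNpc1 mean of Rpl5 was 0.845 of the shControl mean (log2 fold change -0.24 with an SE of 0.07, limma adjusted p = 0.0447).

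The 3 calls are narrow. Without shControl replicate 1, 2 or 3 the limma adjusted p was 0.121, 0.125 and 0.127 for Rps24, 0.168, 0.138 and 0.174 for Rpl23, and 0.157, 0.158 and 0.174 for Rpl5; without shNpc1 replicate 6 it was 0.0858, 0.0955 and 0.139, and without replicate 5 Rps24 kept its call (0.0448) while Rpl23 (0.0515) and Rpl5 (0.0648) did not. Over all alternatives it ranged from 0.00246 to 0.127 for Rps24, 0.00392 to 0.174 for Rpl23 and 0.00163 to 0.739 for Rpl5. All 3 were poorer in GC (46.0%, 46.4% and 42.7%) than the median member (51.5%). These GC values are of each gene's longest protein-coding transcript, which need not be the one expressed. After a spline correction for GC content, Rpl23 kept its call (limma adjusted p = 0.0452) while Rps24 (0.0923) and Rpl5 (0.739) did not.

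In all, 10 members, among them these 3, had no overlap between the groups, and all were lower in shNpc1. They are 11.8% of the members, against 16.1% of all tested genes lower and 27.4% higher without overlap. The other 7 were Rps29 and Rps3a1 of the 40S and Rpl4, Rpl7, Rpl21, Rpl37 and Rpl36al of the 60S subunit. Rps29 measured 1731, 1669 and 1630 FPKM in shNpc1 and 1897, 2203 and 1984 FPKM in shControl libraries (log2 -0.27, limma adjusted p = 0.0649). Rpl37 measured 713.7, 717.6 and 744.6 FPKM in shNpc1 and 812, 910.4 and 832.3 FPKM in shControl libraries (log2 -0.23, limma adjusted p = 0.0658). Rpl7 measured 2043, 1973 and 2057 FPKM in shNpc1 and 2320, 2448 and 2306 FPKM in shControl libraries (log2 -0.22, limma adjusted p = 0.0749). In these genes shNpc1 replicate 4 lay below the controls with replicates 5 and 6, which the lack of overlap requires. The authors' deposited table gives q below 0.05 for 6 members, all lower (7.06%, against 5.60% of its genes lower and 6.48% higher). These shares are not like for like: they cover all 15917 genes, including those under the 1 FPKM filter that every member passed. In the authors' deposited table these are Rps24 (log2 -0.32, q = 0.00177), Rpl23 (-0.29, 0.00656), Rps29 (-0.32, 0.00872), Rpl5 (-0.26, 0.0149), Rpl7 (-0.24, 0.0275) and Rpl37 (-0.26, 0.0383).

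At the other end, Rps18 (log2 0.05), Rps2 (0.05) and Rpl36 (0.03) had replicate 4 above and replicate 5 below every control. Rps19bp1 measured 66.3, 46.6 and 51.0 FPKM in shNpc1 and 39.7, 50.4 and 47.5 FPKM in shControl libraries, and its groups overlapped too (log2 0.24, SE 0.15, limma adjusted p = 0.286). Rps6 had 1005 ± 87.1 FPKM in shNpc1 and 1063 ± 48.6 FPKM in shControl libraries (SD, n = 3 each; log2 -0.08, limma adjusted p = 0.516).

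Without shNpc1 replicate 4, 16 of 85 members fell and 0 rose. That is 18.8%, against 10.1% of all tested genes lower and 18.3% higher in the same fit. The median log2 fold change was then -0.19, against 0.03 for all tested genes, and 83 members were negative. The 16 held the 3 named above and Rps12, Rps26, Rps29 and Rpsa of the 40S, Rplp0 of the stalk, and Rpl7, Rpl21, Rpl22, Rpl34, Rpl35a, Rpl36al, Rpl37 and Rpl7l1. Of these, Rpsa and Rpl34 are described after their values were seen. Rpsa, the 40S protein also known as the laminin receptor, measured 1232 and 1320 FPKM in shNpc1 replicates 5 and 6, against 1478, 1696 and 1538 FPKM in shControl libraries; replicate 4 had 1729 FPKM, above all controls. Without it the log2 fold change of Rpsa was -0.30 (limma adjusted p = 0.0254). Rpl34, a 60S gene, measured 1615 and 1669 FPKM in replicates 5 and 6, against 1887, 2201 and 2098 FPKM in shControl libraries, and 2177 FPKM in replicate 4. Its log2 fold change without replicate 4 was -0.33 (limma adjusted p = 0.0216). When limma instead weighted the libraries by their spread, 33 members fell and 0 rose (38.8%), against 47.9% of all tested genes called in either direction and 19.3% called lower.

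**Figure D3:**
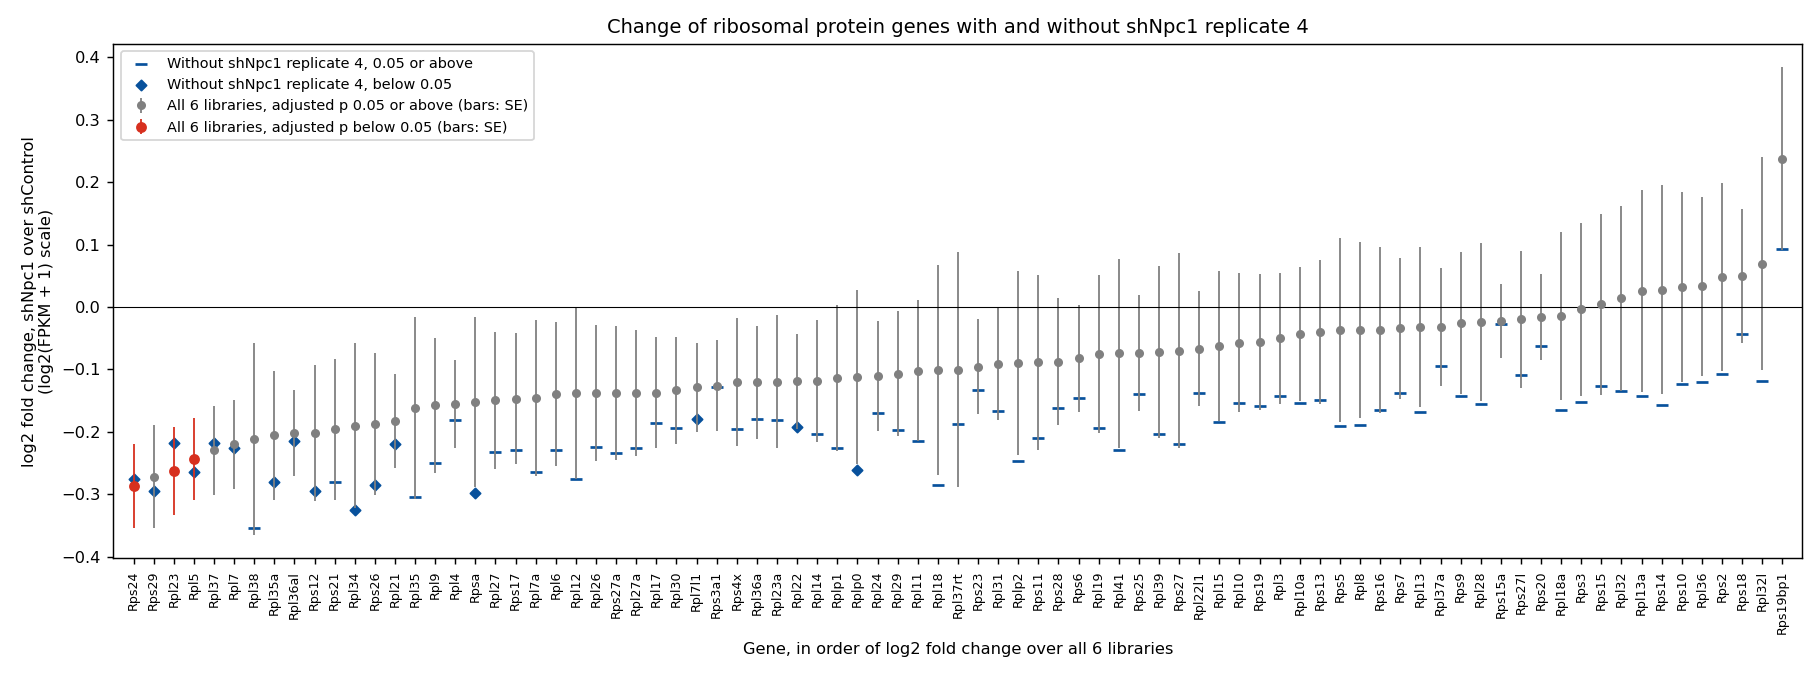
Log2 fold change of ribosomal protein genes (shNpc1 over shControl; Rps27rt not drawn) with all 6 libraries (dots with SE; red, limma adjusted p below 0.05) and without shNpc1 replicate 4 (blue; diamonds, below 0.05). With all libraries 3 genes passed, and without replicate 4 16 passed; the values run from -0.29 (Rps24) to 0.24 (Rps19bp1) with all libraries.

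Within the family, replicate 4 also ordered members by the GC content of their transcripts. In the 28 members lowest in GC (40.6% to 49.2%) the median deviation from the shControl mean was 0.02 in replicate 4, and in the 28 highest in GC (53.3% to 62.4%) it was 0.23. In replicate 5 the same groups of genes had medians of -0.24 and -0.24, and in replicate 6 -0.15 and -0.11. Across the 82 members with a GC value other than Rps27rt, r was 0.51 in replicate 4, -0.13 in replicate 5 and 0.07 in replicate 6. These points share a library, and with Rps27rt the r of replicate 4 was 0.33. In shControl replicates 1, 2 and 3 the r of the same 82 members was -0.34, 0.47 and -0.08. The medians of the lowest and highest GC groups lay closer together there: -0.06 and -0.10, 0.07 and 0.10, and 0.01 and 0.00. With a GC correction that was fitted without the members, an alternative added once values were known, 12 of 83 members fell and 0 rose (14.5%, against 11.9% of all tested genes lower and 13.3% higher). The median was then -0.17. Of these 12, 6 were among the 16 called without replicate 4. How far base composition accounts for the shift was not tested.

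**Figure D4:**
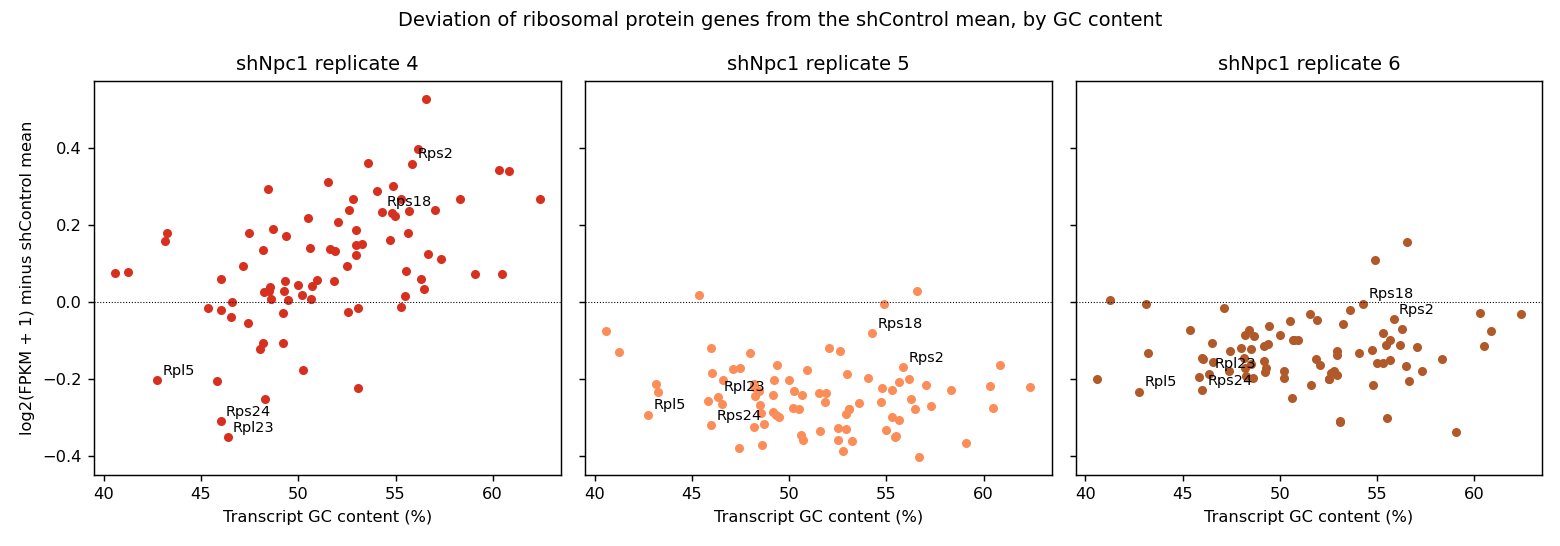
Deviation of log2(FPKM + 1) from the shControl mean against transcript GC content (%) for the ribosomal protein genes, with 1 panel per shNpc1 library (Rps27rt not drawn). Points climb with GC content in replicate 4 (r = 0.51) and lie in a band below 0 in replicates 5 and 6.

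The subunits were compared next. The 34 Rps genes had a median log2 fold change of -0.06, and 27 were negative; the 51 Rpl genes had a median of -0.11, and 47 were negative. The medians were -0.15 and -0.20 when shNpc1 replicate 4 was left out. The difference between the subunits was not tested.

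The stalk proteins, which recruit elongation factors to the 60S subunit, moved alike from library to library. Rplp0 measured 2821, 1967 and 2170 FPKM in shNpc1 and 2332, 2587 and 2519 FPKM in shControl libraries (log2 -0.11, limma adjusted p = 0.588; -0.26 and 0.0456 without shNpc1 replicate 4, over a range of 0.0218 to 0.993). Rplp1 measured 3154, 2417 and 2575 FPKM in shNpc1 and 2762, 3093 and 2909 FPKM in shControl libraries (log2 -0.11). Rplp2 measured 3132, 2129 and 2404 FPKM in shNpc1 and 2517, 2854 and 2690 FPKM in shControl libraries (log2 -0.09). All 3 had replicate 4 above and replicates 5 and 6 below every control.

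Rpl5 and Rpl11 bind the 5S ribosomal RNA, and the particle they form can bind Mdm2, the ubiquitin ligase of p53. Rpl5 fell (above), while Rpl11 measured 651.8, 488.9 and 543.8 FPKM in shNpc1 and 582.6, 635.4 and 578.6 FPKM in shControl libraries (log2 -0.10, SE 0.11, limma adjusted p = 0.538). The difference between both changes was not tested. Of 7 tested genes in the list of ribosomal stress and p53, 1 rose and 0 fell: Zmat3, a p53 target, measured 20.5, 20.1 and 19.9 FPKM in shNpc1 and 14.9, 14.8 and 15.3 FPKM in shControl libraries (log2 0.40, limma adjusted p = 0.0061). Over all tested genes 12% were called higher, so a count of 1 in 7 is near the background. Without shNpc1 replicate 4, 3 of the 7 rose, against 18.3% of all tested genes higher in that fit. With another library left out 1 or 2 did, and no share over all genes is given for those fits. Mdm2, named after its values were seen, measured 37.1, 64.2 and 58.6 FPKM in shNpc1 and 51.9, 45.2 and 47.0 FPKM in shControl libraries (log2 0.11, limma adjusted p = 0.703), with replicate 4 below and replicates 5 and 6 above every control.

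Of the paralogues with a parent gene, 0 passed with all libraries. Rpl22l1, which can replace Rpl22 in the 60S subunit, measured 1105, 994.1 and 912.4 FPKM in shNpc1 and 985.3, 1099 and 1063 FPKM in shControl libraries (log2 -0.07, limma adjusted p = 0.626). It stood far above Rpl22, which had 111.9, 95.3 and 96.7 FPKM in shNpc1 and 108.9, 112.7 and 107.7 FPKM in shControl libraries (log2 -0.12, limma adjusted p = 0.304). Rps27l, a paralogue of Rps27 that p53 induces in human cells, had 725.6 ± 93.2 FPKM in shNpc1 and 732.7 ± 51.7 FPKM in shControl libraries (SD, n = 3 each; log2 -0.02). Rps27 had 4619 ± 870 FPKM in shNpc1 and 4817 ± 565 FPKM in shControl libraries (log2 -0.07). Rpl36al measured 1057, 1018 and 1043 FPKM in shNpc1 and 1181, 1261 and 1148 FPKM in shControl libraries, without overlap (log2 -0.20, limma adjusted p = 0.0857), and Rpl36a had a log2 fold change of -0.12. Rps27rt (10.3, 0 and 4.51 FPKM in shNpc1, and 4.07, 6.67 and 2.14 FPKM in shControl libraries) and Rpl37rt (6.93, 6.26 and 5.04 FPKM in shNpc1, and 4.70, 7.79 and 7.55 FPKM in shControl libraries) were low and varied, and may share reads with their parents.

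Rack1 and Fau also encode proteins of the ribosome but lie outside the symbol rule, and neither passed. Rack1, a signalling scaffold on the 40S subunit, had 1502 ± 298 FPKM in shNpc1 and 1585 ± 94.2 FPKM in shControl libraries (SD, n = 3 each; log2 -0.09). Fau, whose product yields a 40S protein, had a log2 fold change of -0.01. Both were highest in replicate 4 among the shNpc1 libraries and lowest in replicate 5. Of 8 elongation factor genes 1 fell, against 5.89% of all tested genes called lower. It was Eef1e1 (log2 -0.34, limma adjusted p = 0.0271), whose product is an auxiliary protein of the tRNA synthetase complex. After the GC correction it did not pass (log2 -0.21, limma adjusted p = 0.272). Eef1a1, which brings aminoacyl-tRNA to the ribosome, had 8116 ± 709 FPKM in shNpc1 and 8334 ± 324 FPKM in shControl libraries (SD, n = 3 each; log2 -0.04), and Eef2, the translocation factor, had a log2 fold change of 0.09.

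Of 28 initiation factor genes 3 fell and 0 rose: Eif1ax (log2 -0.33), Eif3m (-0.22) and Eif2s1 (-0.37), which encodes the subunit of eIF2 that stress kinases phosphorylate. Of all tested genes 5.89% were called lower. After the GC correction 0 of these 3 passed, with log2 fold changes of -0.06 for Eif1ax, -0.11 for Eif3m and -0.13 for Eif2s1 (limma adjusted p = 0.714, 0.481 and 0.182). Without shNpc1 replicate 4, 8 fell, against 10.1% of all tested genes lower in that fit. Without shNpc1 replicate 5, 7 fell, and no share over all genes is given for that fit. Without any shControl replicate or without shNpc1 replicate 6, 0 initiation factor genes fell. Of 11 other TOP mRNAs 2 fell and 0 rose, against 5.89% of all tested genes lower. When shNpc1 replicate 5 was left out, 3 fell and 1 rose, and no share over all genes is given for that fit. Hnrnpa1, an RNA-binding protein gene, measured 518.7, 685.4 and 588.4 FPKM in shNpc1 and 926.7, 878 and 877 FPKM in shControl libraries (0.668 of the shControl mean, log2 -0.59 with an SE of 0.11, limma adjusted p = 0.0132). Npm1, the nucleolar chaperone nucleophosmin, measured 1227, 1625 and 1485 FPKM in shNpc1 and 2210, 2023 and 2117 FPKM in shControl libraries (ratio 0.683, log2 -0.56, SE 0.11, limma adjusted p = 0.0198). In both genes the shNpc1 and shControl libraries did not overlap, and both changes were larger than that of any member of at least 10 FPKM. Neither passed without a shControl replicate or without shNpc1 replicate 6. Tpt1 (log2 0.02) and Pabpc1 (log2 -0.10) did not pass.

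Of 69 tested ribosome assembly factors 6 fell and 0 rose, against 5.89% lower over all tested genes. The log2 fold change was negative for 52, against 45.8% of all tested genes, and the median was -0.12. Their medians in shNpc1 replicates 4, 5 and 6 were -0.22, -0.11 and -0.10, all on the same side, unlike those of the ribosomal proteins. Rrs1, which helps bring the 5S particle into the 60S subunit in yeast, measured 63.6, 68.3 and 67.9 FPKM in shNpc1 and 89.3, 86.3 and 86.8 FPKM in shControl libraries (ratio 0.762, log2 -0.39, SE 0.06, limma adjusted p = 0.00689). Nop56, a core protein of the particles that methylate ribosomal RNA, had a log2 fold change of -0.26, the helicase gene Ddx21 of -0.27 and Tsr1, a 40S maturation factor, of -0.33. Without shNpc1 replicate 4, 14 assembly factors fell, against 10.1% of all tested genes lower in that fit. Without shNpc1 replicate 5, 18 fell, and no share over all genes is given for that fit. Without shControl replicate 1, 2 or 3 or shNpc1 replicate 6 the counts were 1, 1, 0 and 1. Of 25 genes of RNA polymerases I and III and their factors 3 rose and 2 fell, against 12% higher and 5.89% lower over all tested genes. Among those that rose were Rrn3, the initiation factor of polymerase I (ratio 1.17, limma adjusted p = 0.0399), and Gtf3a, which binds 5S ribosomal RNA and its genes (ratio 1.47, limma adjusted p = 0.0231). Those that fell were Polr3b, a large subunit of polymerase III (log2 -0.30, limma adjusted p = 0.0443), and Taf1d, a polymerase I factor (log2 -0.40, limma adjusted p = 0.0480; 0.0639 after the GC correction).

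In the list of mTORC1, S6 kinase and TOP regulators, 6 of 18 genes rose and 0 fell, against 12% higher and 5.89% lower over all tested genes. Without shNpc1 replicate 5, 6 rose and 2 fell, and no share over all genes is given for that fit. Eif4ebp1, an inhibitor of cap-dependent initiation that mTORC1 phosphorylates, measured 237.3, 175.9 and 192.5 FPKM in shNpc1 and 128.6, 141.1 and 137 FPKM in shControl libraries (ratio 1.49, log2 0.56, SE 0.11, limma adjusted p = 0.0187). Its relative Eif4ebp2 rose to 1.37 times the shControl mean, Rps6kb2, an S6 kinase, to 1.34 times and Tsc1, a brake on mTORC1, to 1.31 times. The other S6 kinase of the list, Rps6kb1, named after its values were seen, went the other way without passing (log2 -0.34, limma adjusted p = 0.243). Its groups overlapped. After the GC correction neither Rps6kb2 nor Tsc1 passed (limma adjusted p = 0.124 and 0.0603). Larp1 (log2 0.01), Mtor (log2 0.09) and Myc (log2 -0.12), a driver of ribosomal protein transcription, did not pass. Without any shControl replicate or without shNpc1 replicate 6, 0 genes of this list and of the polymerase list were called.

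The mitochondrial ribosomal proteins and the proteasome subunits are other sets of genes for large complexes. Among 78 mitochondrial ribosomal protein genes 2 rose and 0 fell, against 12% higher over all tested genes. When shNpc1 replicate 4 was left out 6 rose and 3 fell, against 18.3% higher and 10.1% lower over all tested genes in that fit. Without replicate 5, 10 rose and 1 fell, and no share over all genes is given for that fit. When replicate 6 or any shControl replicate was left out, 0 were called. Their log2 fold changes had a median of 0.08 (0.02 without replicate 4), with library medians of 0.21, -0.05 and 0.08 in shNpc1 replicates 4, 5 and 6. Of 35 proteasome genes 1 rose and 1 fell, against 12% higher and 5.89% lower over all tested genes. Their log2 fold changes had a median of -0.03, with library medians of 0.11, -0.12 and -0.06. Without replicate 4, 3 rose and 6 fell and the median was -0.09. Without replicate 5, 2 rose and 3 fell, again with no share over all genes given for that fit. The cytosolic 40S and 60S lists had medians of 0.14 and 0.07 in replicate 4, -0.22 and -0.26 in replicate 5, and -0.11 and -0.15 in replicate 6. Replicate 4 thus lay above replicates 5 and 6 in all 4 lists. No difference between lists was tested.

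**Figure D5:**
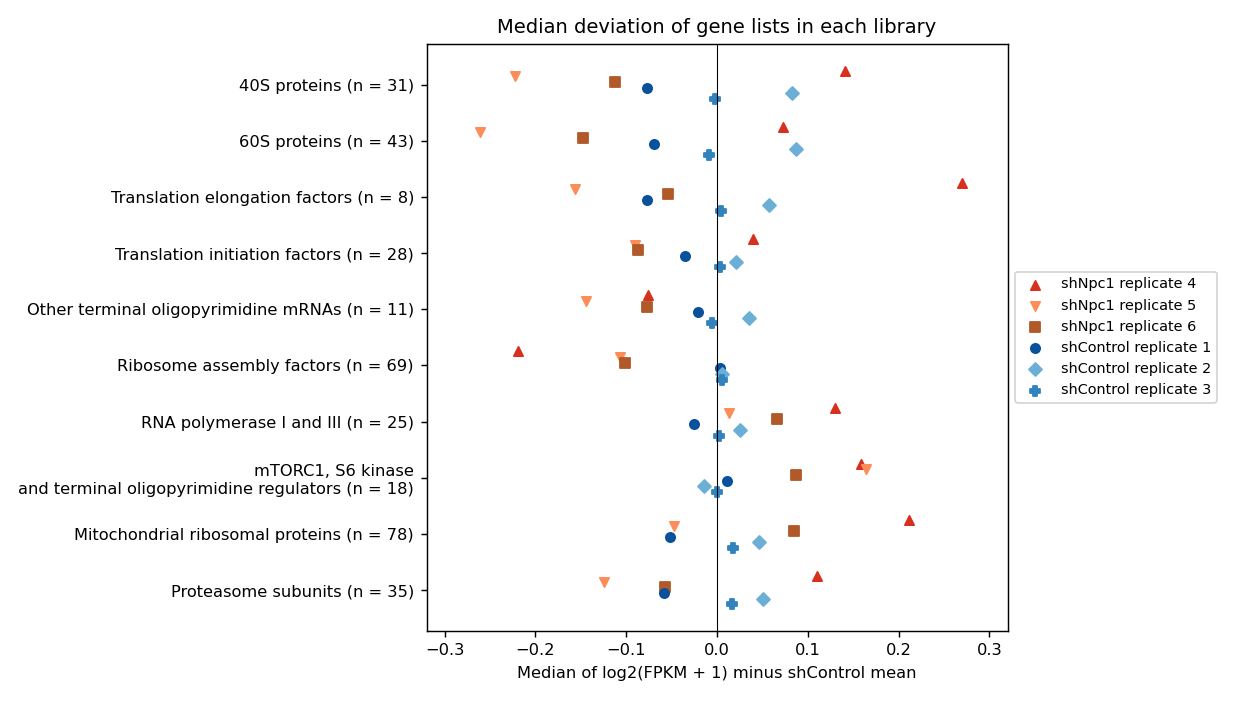
Median deviation of log2(FPKM + 1) from the shControl mean for 10 gene lists in each library (n, genes tested), with shNpc1 libraries as red to brown and shControl libraries as blue symbols. The 40S and 60S lists are positive in shNpc1 replicate 4 and negative in replicates 5 and 6, while the assembly factors are negative in all 3.

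Pyrimidine runs at the start did not separate the members by their change. The 31 members with a run of at least 8 bases had a median log2 fold change of -0.08, and the other 34 with a promoter entry one of -0.11. Without shNpc1 replicate 4 the medians were -0.19 and -0.18. This is a description, since the members share libraries.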

How the data were processed

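The authors deposited 1 table of 15917 genes with FPKM in 6 libraries, rounded to 2 decimals, and their own log2 ratio with its p-value and q-value. Not given in the sources used here are the aligner, counting program, build, annotation, strandedness and the authors' test. No read counts were used; for low values, FPKM times transcript length peaked at 0.06 to 0.08 in every library, so relative depth did not differ beyond that bin, and absolute depth is unknown. The 10400 genes averaging 1 FPKM or more were tested as log2(FPKM + 1) in R 4.3.3 with limma 3.58.1 (empirical Bayes with intensity trend, two-sided, Benjamini-Hochberg over all genes tested, threshold 0.05); fold changes on that scale understate those of low genes. The test was tried on simulated data. The members, lists, tests and the rule for named genes (members past the threshold, the 6 highest and 6 lowest fold changes, the most and least abundant members, stalk, 5S and paralogue genes, Rps6, up to 4 called genes of each other list, and set translation and growth genes such as Eef1a1) were chosen with earlier results of these data known. Transcript GC content and length were those of each gene's longest protein-coding transcript in GENCODE M21, matched by NCBI gene number (98.5% of tested genes, 83 members). Promoter sequences came from RefSeq (GRCm38.p6), matched by gene number for 65 members. The table names no build, so coordinates belong to RefSeq alone. Alternatives covered pseudocount, filters, scaling, limma settings, GC and length corrections and each library left out. Results of some genes that this rule names are not reported here, and those genes are not drawn where genes are labelled; they stay in all counts and medians.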

Additional observations from a re-analysis of the deposited data

How the results depend on the processing

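No ribosomal protein gene was called higher under any alternative. The number called lower was 3 over all libraries, and 0 without a filter and with median scaling. It was 9 with TPM, with quantile normalization and when scaled on the other genes. Sample weights, 0.116 for shNpc1 replicate 4 and 3.65 for shNpc1 replicate 6, gave 33. The GC and length correction gave 31. The GC correction fitted without the members, which was chosen after seeing the data, gave 12. Leaving out 1 library gave 0 to 16. Of all tested genes, 5.89% were called lower over all libraries and 19.3% with sample weights. The share was 11.9% after the GC correction fitted without the members and 10.1% without shNpc1 replicate 4. For the other alternatives no share of all genes called lower is given, so their counts cannot be set against the background. The number of all genes called, 1864 over all libraries, was 4977 with sample weights and 3013 after the GC and length correction, and leaving out 1 library gave 469 to 2953; of these, 469, 501, 650 and 722 came without shControl replicates 3, 1 and 2 and without shNpc1 replicate 6. The median log2 fold change of the members stayed negative, from -0.19 to -0.02 over the alternatives, and Npc1 stayed called lower. No named gene that passed changed sign; 23 of 65 named genes, none of which passed, did under at least 1 alternative. No paired analysis was possible because the groups share no replicate numbers. Precision is limited by 3 libraries a group, by unknown depth, and by reads that near-identical copies may share.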
